A study of Mus musculus with 8 samples.

Results

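A group of 47 genes of the brain's blood vessels was examined in RNA-seq of whole E15.5 mouse brains, 4 from the litter of a dam exposed to chronic unpredictable mild stress (stress group) and 4 from the litter of an undisturbed dam (control group). The genes were listed by name, at a time when earlier results of these same brains were known, and take in the junction and surface proteins of endothelial cells, the receptors and ligands of vessel growth, transcription factors of vessel cells, genes of the blood-brain barrier and genes of pericytes. All 47 were found among the 54752 listed genes, and 46 of them passed the filter on low counts, which kept 17865 genes in all. The gene that did not pass was *Esm1*, a secreted proteoglycan of endothelial tip cells, with 5 to 17 counts per brain. The fetuses were wild-type mice, C57BL/6 by the labels and C57BL/6Slac in the study's methods. The stressed dam met a changing schedule of mild stressors from E5.5 to E14.5, and poly(A)-selected mRNA of each brain made up 1 library. Each group held 2 females and 2 males, named F36, F37, M30 and M31 in the control group and F34, F35, M28 and M29 in the stress group. The study's sample sheet gives the 4 control brains 1 litter and the 4 stressed brains another, so that litter and condition cannot be told apart, and a p-value measures only the spread among littermates. The sheet names no batch for these 8 brains.

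The vessels of the fetal brain grow in from the surface, led by tip cells that follow VEGF released by neural progenitors. VEGF-A acts mainly through the receptor tyrosine kinase *Kdr* (VEGFR2), while *Flt1* (VEGFR1) binds the same ligand tightly and limits how much of it reaches *Kdr*. Sprouts become tight vessels under Wnt7 signals from neural cells and with pericytes that endothelial PDGF-B recruits, and the resulting barrier seals the junctions, lowers vesicle traffic and sets transporters and efflux pumps into the endothelium. In RNA of a whole brain such genes come from a small share of the cells, and fewer cells of a type cannot be told apart from less RNA per cell.

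The promoters of the 4 genes that fell with the smallest p-values are shown first. The shared direction of these 4 genes follows from that choice, and a shared regulation was not tested. Each line is the stretch of 250 bases just before the transcription start in RefSeq (GRCm38.p6, the mm10 assembly), read 5' to 3' on the strand of the gene, with capitals where a searched motif was found. The stretches are chrX:48034854-48035103 for *Apln* (minus strand), chr5:147726012-147726261 for *Flt1* (minus strand), chr5:75978456-75978705 for *Kdr* (minus strand) and chr2:32646345-32646594 for *Eng* (plus strand).
*Apln*: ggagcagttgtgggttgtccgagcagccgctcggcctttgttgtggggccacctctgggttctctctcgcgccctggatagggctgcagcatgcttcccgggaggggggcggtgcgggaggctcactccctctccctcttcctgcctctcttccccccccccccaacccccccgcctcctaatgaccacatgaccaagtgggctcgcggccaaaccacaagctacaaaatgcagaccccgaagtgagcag
*Flt1*: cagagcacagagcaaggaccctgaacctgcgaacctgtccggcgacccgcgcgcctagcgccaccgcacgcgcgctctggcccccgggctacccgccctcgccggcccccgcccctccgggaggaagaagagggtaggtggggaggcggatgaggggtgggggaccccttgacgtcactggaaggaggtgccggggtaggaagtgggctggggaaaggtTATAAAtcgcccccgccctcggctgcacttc
*Kdr*: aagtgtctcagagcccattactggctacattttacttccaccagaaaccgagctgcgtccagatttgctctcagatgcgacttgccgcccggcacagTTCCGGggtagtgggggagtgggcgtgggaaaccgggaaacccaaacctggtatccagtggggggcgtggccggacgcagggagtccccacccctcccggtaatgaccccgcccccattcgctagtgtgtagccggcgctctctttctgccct
*Eng*: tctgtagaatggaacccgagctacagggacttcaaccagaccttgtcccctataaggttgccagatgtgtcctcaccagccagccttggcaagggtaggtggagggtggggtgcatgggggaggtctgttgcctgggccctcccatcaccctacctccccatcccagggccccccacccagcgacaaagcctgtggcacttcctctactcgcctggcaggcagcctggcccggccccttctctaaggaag
The motifs searched, on both strands, were the ETS core CCGGAA, the SOX motif ACAATG, the TCF/LEF motif TCAAAG and the TATA box TATAAA. For the hypoxia response element only the form ACGTG of its core was searched, and other forms were not counted. The capitals in *Flt1* mark a TATA box that begins 31 bases before the start. Those in *Kdr* mark the ETS motif on the opposite strand, beginning 153 bases before the start. The stretches of *Apln* and *Eng* held no match to these letters, which does not show that they lack ETS, SOX or hypoxia response sites. GC made up 65.2% of the *Apln* stretch, 70.4% of *Flt1*, 61.6% of *Kdr* and 62.4% of *Eng*, with 12, 23, 16 and 4 CpG dinucleotides.

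RefSeq promoters of 300 bases, 250 before and 50 after the start, were at hand for 28 of the 47 genes, 9 of them among the genes called lower below. TCF/LEF, the motif of the Wnt pathway, was found in 7 of the 28 genes (*Mfsd2a*, *Abcb1a*, *Egfl7*, *Robo4*, *Esm1*, *Rgs5* and *Spock2*) and in 18.2% of all 27025 genes with such a promoter. The ETS motif was found in 3 of the 28 genes and 16.7% of all genes, and the SOX motif in 2 and 14.3%. The ACGTG form of the hypoxia core was found in 4 and 21.8%, and the TATA box in 4 and 15.7%. Of the 9 genes called lower, 3 held TCF/LEF (*Egfl7*, *Robo4* and *Spock2*) and 1 the ETS motif (*Kdr*). The ACGTG form was held by 1 (*Spock2*), the TATA box by 1 (*Flt1*) and the SOX motif by 0. A match of this kind describes the letters and not a bound site.

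Total counts lay between 25320109 and 29105710 per library. The sum of fibroblast markers stood apart in stress M28, at 126 CPM (counts scaled to the library total) against 83.0 to 97.5 CPM in the other 7 brains, and the sum of choroid plexus markers in stress F34, at 82.4 CPM against 43.1 to 57.3 CPM. Counts of called vascular genes are therefore also given without both brains. CPM values below are scaled by edgeR's TMM factors and listed in the order F36, F37, M30, M31 for the control brains and F34, F35, M28, M29 for the stressed brains. The log2 fold change (log2FC) is stress over control with sex in the model, and genes with an adjusted p below 0.05 were called, by edgeR's quasi-likelihood test with Benjamini-Hochberg adjustment over all 17865 genes.

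In the stressed brains 13 of the 46 vascular genes were lower and 1 was higher, and 32 were not called. Of all tested genes 7.27% were called lower and 6.49% higher, against 13 and 1 of 46 here. The genes that fell were the peptide ligand *Apln* and the growth factor *Pdgfb*, the receptors *Flt1*, *Kdr* and *Tek*, the surface and junction genes *Eng*, *Robo4*, *Esam*, *Egfl7* and *Cldn5*, the transcription factors *Sox18* and *Sox7*, and the proteoglycan *Spock2*. The efflux pump gene *Abcg2* rose. The log2FC was below 0 in 35 of the 46 genes, with a median of -0.12, while the median over all tested genes was 0.0015. The 4 stressed brains all lay below the 4 control brains for 13 of the 46 genes and all above for 2 (*Abcg2* and *Plvap*), against 8.22% and 8.2% of all tested genes.

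**Figure D1:**
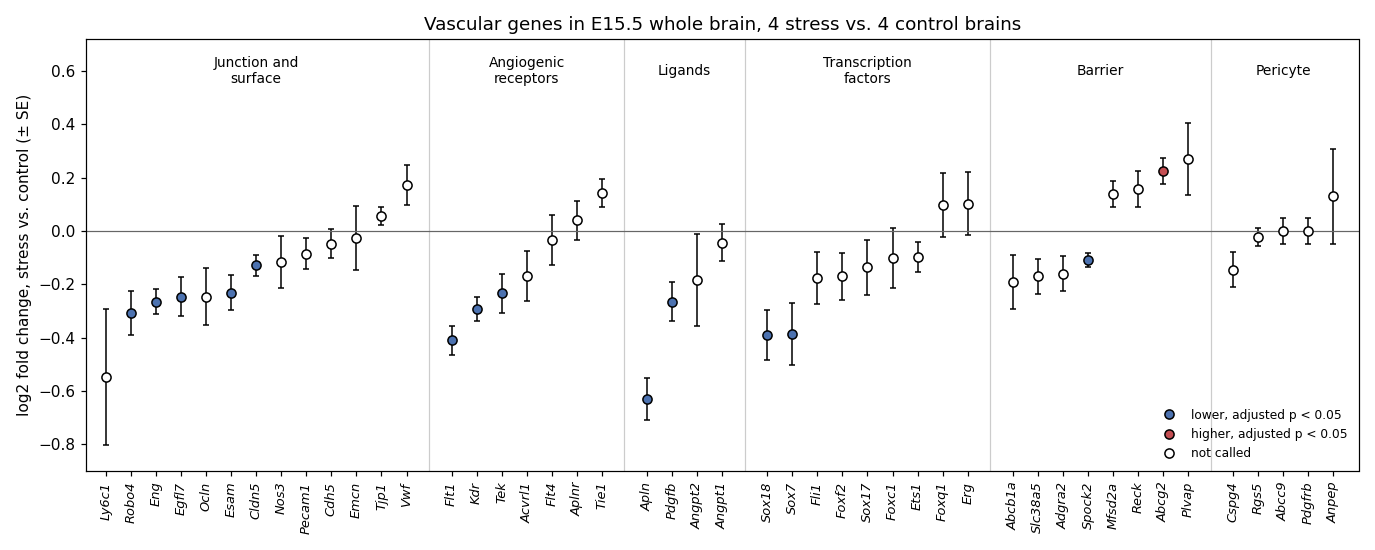
Log2 fold change (stress vs. control, y axis) of the 46 vascular genes that passed the filter, grouped by role along the x axis, with bars of ± 1 SE from edgeR's fit to 8 brains; blue points were called lower, the red point higher and open points were not called. The called genes lie in the junction, receptor, ligand, transcription factor and barrier groups, and the lowest called value is *Apln* at -0.63.

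The calls differed in how firmly they held. Of the 14 called genes, 7 stayed called whichever brain was left out (*Apln*, *Flt1*, *Kdr*, *Eng*, *Abcg2*, *Sox18* and *Spock2*), and DESeq2 called 8, these 7 and *Pdgfb*. Without stress F34 and stress M28 together, 8 of the 14 remained called: *Apln*, *Flt1*, *Kdr*, *Eng*, *Robo4*, *Sox18*, *Egfl7* and *Abcg2*. *Spock2*, *Pdgfb*, *Esam*, *Cldn5*, *Sox7* and *Tek* were then not called, with edgeR adjusted p-values between 0.0514 and 0.232. Their log2FC lay between -0.39 and -0.11 over all 8 brains and between -0.40 and -0.10 in that fit. Only stress F35 and stress M29 were left there, so fewer brains and dependence on those left out cannot be told apart. All 14 kept their sign in that fit.

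Among the ligands, *Apln* (chrX:48025146-48034853, minus strand) had the largest fall of all called vascular genes. It encodes apelin, a peptide that endothelial tip cells release and that acts on the receptor APJ. *Apln* stood at 9.14, 10.05, 10.2 and 9.596 CPM in the control brains and 6.699, 5.81, 6.13 and 6.56 CPM in the stressed brains. Every stressed brain was below every control brain, and the mean fell by 35.3% (log2FC -0.63 ± 0.08 SE, edgeR adjusted p = 9.52e-06). The receptor gene *Aplnr* overlapped between the groups, with 11.5 to 14.6 CPM in control and 12.4 to 14.8 CPM in stressed brains (log2FC 0.04 ± 0.07 SE, edgeR adjusted p = 0.785). *Pdgfb*, the growth factor with which endothelial cells recruit pericytes, was at 12.4, 11.6, 13.1 and 10.7 CPM in the control brains and 9.74, 10.8, 10.1 and 9.19 CPM in the stressed brains. Stress F35 lay just above control M31, so that the groups overlapped, and the fall of 16.8% passed the test (log2FC -0.27 ± 0.07 SE, edgeR adjusted p = 0.0162). Without control M30, stress F34 or stress M29 its adjusted p was 0.0533 to 0.104 by edgeR. The angiopoietin genes, ligands of the receptor encoded by *Tek*, were not called. *Angpt1*, which steadies vessels, had 10.6 to 12.2 CPM in control and 10.4 to 11.7 CPM in stressed brains (log2FC -0.04 ± 0.07 SE, edgeR adjusted p = 0.744), and 14.2% of its exon bases are shared with another annotated gene. *Angpt2*, which loosens them, had 1.34 to 2.104 CPM in control and 1.27 to 1.93 CPM in stressed brains (log2FC -0.19 ± 0.17 SE, edgeR adjusted p = 0.544). The filtered tip cell gene *Esm1* was at 0.211 to 0.617 CPM in control and 0.174 to 0.326 CPM in stressed brains, too few counts for a test.

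Both main VEGF receptor genes fell. *Flt1* (chr5:147561604-147726011, minus strand) measured 22.2, 24.7, 22.6 and 25.7 CPM in the control brains and 18, 17.9, 18.9 and 17 CPM in the stressed brains. The highest stressed brain was below the lowest control brain, and the fall was 24.7% (log2FC -0.41 ± 0.06 SE, edgeR adjusted p = 2.19e-05). *Kdr* (chr5:75932827-75978458, minus strand) read 37.3, 41.7, 41.9 and 44.5 CPM in the control brains and 34.4, 32.6, 33.5 and 34.5 CPM in the stressed brains. Here too the groups were apart, control F36 being the lowest control brain (log2FC -0.29 ± 0.04 SE, edgeR adjusted p = 8.35e-05). The third VEGF receptor gene, *Flt4*, best known from lymphatic vessels, did not differ beyond its spread, with 4.78 to 6.02 CPM in control and 4.97 to 5.65 CPM in stressed brains (log2FC -0.03 ± 0.09 SE, edgeR adjusted p = 0.866).

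The angiopoietin receptor *Tek* (Tie2) and its partner *Tie1* had opposite signs. *Tek* had 9.61 to 12.2 CPM in control and 8.98 to 10.2 CPM in stressed brains, overlapping groups and a fall that passed the test (log2FC -0.23 ± 0.07 SE, edgeR adjusted p = 0.0359), and its call held in 2 of the 8 fits that left out a brain. The adjusted p of *Tek* was 0.0597 to 0.181 by edgeR without control F37, M30 or M31 or stress F34, M28 or M29. *Tie1*, an orphan receptor that pairs with Tie2, had 17.6 to 18.6 CPM in control and 18.1 to 20.5 CPM in stressed brains and was not called (log2FC 0.14 ± 0.05 SE, edgeR adjusted p = 0.0713), though without stress F35 it was called higher, with an edgeR adjusted p of 0.0314. *Acvrl1* (ALK1), the endothelial BMP receptor that works with endoglin, had 5.21 to 6.97 CPM in control and 5.37 to 5.53 CPM in stressed brains (log2FC -0.17 ± 0.09 SE, edgeR adjusted p = 0.252). In the receptor group as a whole 3 of 7 genes were called lower and 0 higher by edgeR's test, beside 7.27% and 6.49% of all genes. In so small a group a count of 0 higher lies near that share. By edgeR 1 was higher at an unadjusted p below 0.05, and DESeq2 called 2 lower and 0 higher.

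**Figure D2:**
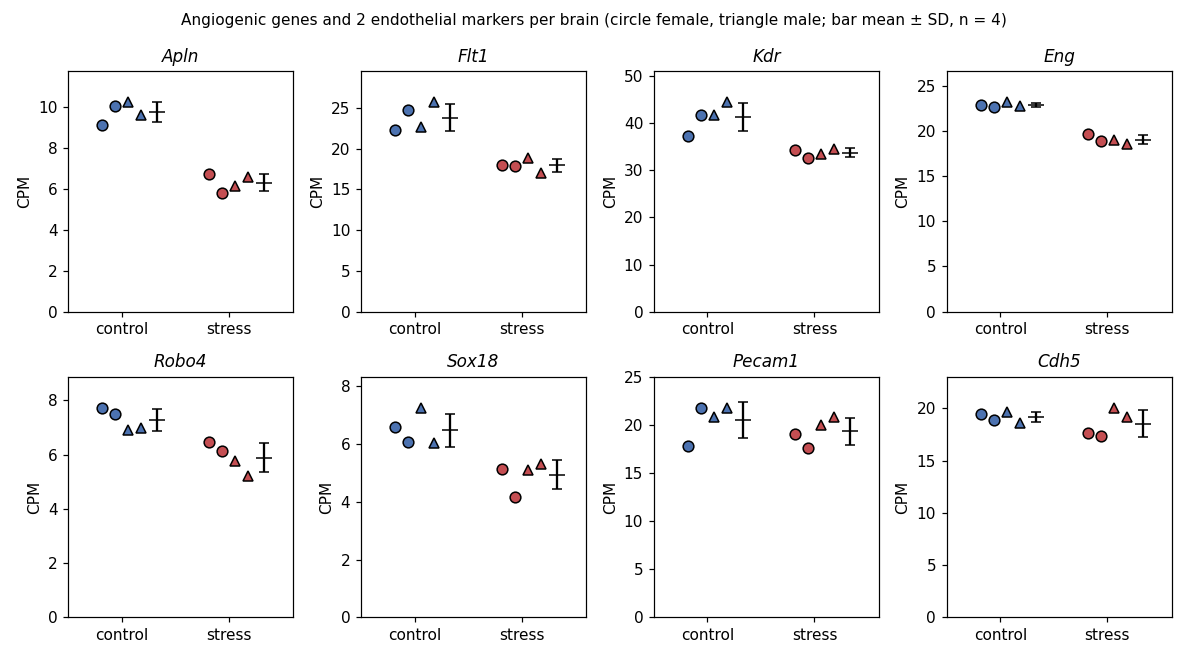
CPM per brain (y axis, from 0) of 6 called angiogenic genes and the endothelial markers *Pecam1* and *Cdh5* in the control and stress groups (x axis); circles are females, triangles males, and the bar is the mean ± SD of 4 brains. For the 6 called genes every stressed brain lies below every control brain, while the groups overlap for *Pecam1* and *Cdh5*.

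The surface genes *Pecam1*, *Cdh5* and *Emcn* were not called. *Pecam1* (CD31), an adhesion molecule at endothelial contacts, was at 17.8, 21.8, 20.8 and 21.8 CPM in the control brains and 19.01, 17.6, 19.97 and 20.8 CPM in the stressed brains, with overlapping groups (log2FC -0.09 ± 0.06 SE, edgeR adjusted p = 0.374). *Cdh5* (VE-cadherin), the cadherin of endothelial junctions, was at 19.5, 18.9, 19.7 and 18.6 CPM in the control brains and 17.6, 17.3, 20.04 and 19.2 CPM in the stressed brains (log2FC -0.05 ± 0.05 SE, edgeR adjusted p = 0.625). The stressed females were the lowest brains and stress M28 the highest. *Emcn*, a sialomucin of the endothelial surface, had 3.19 to 3.53 CPM in control and 2.77 to 3.97 CPM in stressed brains (log2FC -0.03 ± 0.12 SE, edgeR adjusted p = 0.92).

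Of the 13 junction and surface genes 5 were called lower and 0 higher by edgeR, beside 7.27% and 6.49% of all genes. By edgeR 1 was higher at an unadjusted p below 0.05, and DESeq2 called 1 lower and 0 higher. *Eng* (chr2:32646595-32682669, plus strand) encodes endoglin, a co-receptor for TGF-beta and BMP ligands. It read 22.9, 22.7, 23.2 and 22.7 CPM in the control brains and 19.7, 18.9, 18.96 and 18.5 CPM in the stressed brains. The control brains lay close together and all stressed brains were below them (log2FC -0.27 ± 0.05 SE, edgeR adjusted p = 0.000456). *Robo4*, a receptor that steadies endothelial contacts, was at 7.72, 7.51, 6.89 and 6.99 CPM in the control brains and 6.45, 6.12, 5.75 and 5.22 CPM in the stressed brains. The groups were apart and the fall was 19.2% (log2FC -0.31 ± 0.08 SE, edgeR adjusted p = 0.0117), which without stress M29 gave an adjusted p of 0.0553.

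*Esam*, an adhesion molecule of tight junctions, was at 14.6, 14.8, 13.6 and 16.5 CPM in the control brains and 12.02, 12.8, 12.8 and 13.1 CPM in the stressed brains (log2FC -0.23 ± 0.06 SE, edgeR adjusted p = 0.0169). *Egfl7*, a matrix protein that endothelial cells secrete, was at 12.9, 11.7, 11.9 and 10.7 CPM in the control brains and 9.96, 8.89, 10.6 and 10.3 CPM in the stressed brains (log2FC -0.25 ± 0.07 SE, edgeR adjusted p = 0.0257). The groups did not overlap for either gene, though the gap in *Egfl7* lay between stress M28 and control M31 and was narrow, and 11.2% of its exon bases are shared with another annotated gene. *Cldn5* (claudin-5), the main sealing protein of brain endothelial tight junctions, measured 39.5, 38.9, 39.04 and 40.6 CPM in the control brains and 36.1, 34.96, 35.97 and 37.4 CPM in the stressed brains. All stressed brains were below all control brains, by a small step of 8.57% (log2FC -0.13 ± 0.04 SE, edgeR adjusted p = 0.0267). The calls of *Esam*, *Egfl7* and *Cldn5* held in 5, 3 and 3 of the 8 fits that left out a brain, and DESeq2 called none of the 3. The adjusted p of *Esam* was 0.0531 to 0.107 by edgeR without control F37, control M31 or stress F34. That of *Egfl7* was 0.0532 to 0.115 without control F36, F37 or M30 or stress F34 or F35, and that of *Cldn5* 0.061 to 0.0804 without control F36, F37 or M31 or stress F35 or M28.

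Other junction genes gave no call. *Ocln* (occludin), a second tight junction protein, was at 3.93, 4.72, 4.03 and 4.36 CPM in the control brains and 3.404, 3.87, 3.42 and 3.696 CPM in the stressed brains. Its stressed brains all lay below the controls, with 94 to 134 counts per brain (log2FC -0.25 ± 0.11 SE, edgeR adjusted p = 0.134). *Tjp1* (ZO-1), the scaffold beneath tight junctions in many cell types, had 83.98 to 95.5 CPM in control and 90.5 to 95.3 CPM in stressed brains (log2FC 0.06 ± 0.03 SE, edgeR adjusted p = 0.287). *Ly6c1*, a surface antigen of mature brain endothelium, was at 0.728, 0.635, 0.834 and 0.879 CPM in the control brains and 0.724, 0.395, 0.453 and 0.518 CPM in the stressed brains and rested on 10 to 25 counts per brain (log2FC -0.55 ± 0.25 SE, edgeR adjusted p = 0.163). *Vwf* (von Willebrand factor), a clotting protein stored in endothelial cells, had 9.902 to 12.6 CPM in control and 11.5 to 13.7 CPM in stressed brains (log2FC 0.17 ± 0.07 SE, edgeR adjusted p = 0.135) and *Nos3* (endothelial nitric oxide synthase) 6.37 to 7.93 CPM in control and 5.57 to 7.32 CPM in stressed brains (log2FC -0.12 ± 0.10 SE, edgeR adjusted p = 0.49), with 32.3% of the exon bases of *Nos3* shared with another gene.

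Among the 9 transcription factor genes both that were called belong to the SoxF family. *Sox18* (chr2:181669836-181671640, minus strand) was at 6.59, 6.06, 7.26 and 6.05 CPM in the control brains and 5.14, 4.19, 5.12 and 5.32 CPM in the stressed brains. The groups did not overlap and the mean fell by 23.6% (log2FC -0.39 ± 0.09 SE, edgeR adjusted p = 0.00627). *Sox7* had 2.99 to 4.195 CPM in control and 2.63 to 3.01 CPM in stressed brains, with control M31 below stress F34, and was called (log2FC -0.39 ± 0.12 SE, edgeR adjusted p = 0.0278) in only 2 of the 8 fits with a brain left out, its adjusted p being 0.0545 to 0.123 without control F37 or M30 or any stressed brain. The third SoxF gene, *Sox17*, had 3.88 to 4.25 CPM in control and 3.56 to 3.91 CPM in stressed brains and was not called (log2FC -0.14 ± 0.10 SE, edgeR adjusted p = 0.435), with 16.8% of its exon bases shared with another gene. The 3 proteins share a DNA-binding domain and act together in vessel growth and artery formation.

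The 3 ETS factors of endothelial cells were not called. *Fli1* had a log2FC of -0.18, *Ets1* of -0.10 and *Erg* of 0.10, with standard errors of 0.10, 0.06 and 0.12 and adjusted p-values of 0.246, 0.294 and 0.640 by edgeR. The forkhead factors were not called either. *Foxf2*, needed in pericytes for a tight barrier, had a log2FC of -0.17 ± 0.09, *Foxc1*, a factor of meninges and mural cells, of -0.10 ± 0.11 and *Foxq1*, a factor of brain endothelium, of 0.10 ± 0.12 (SE). The count of *Foxq1* is uncertain, because 66.1% of its exon bases are shared with another annotated gene. Among all 9 factors 2 were called lower and 0 higher by edgeR, beside 7.27% and 6.49% of all genes. In so small a group a count of 0 higher lies near that share. By edgeR 0 were higher at an unadjusted p below 0.05, and DESeq2 called 1 lower and 0 higher.

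The 8 barrier genes split in direction, 4 with a log2FC below 0 and 4 above. *Abcg2* (chr6:58584523-58695676, plus strand) encodes an efflux pump of the luminal endothelial membrane that is also made by other cells of the fetal brain. It was at 16.7, 16.5, 18.5 and 18.2 CPM in the control brains and 19.4, 19.6, 21.3 and 21.3 CPM in the stressed brains. All stressed brains were above all control brains and the mean rose by 16.9% (log2FC 0.23 ± 0.05 SE, edgeR adjusted p = 0.00278). *Abcb1a* (P-glycoprotein), the other classical efflux pump, went the other way without passing the test, with 4.84 to 5.87 CPM in control and 3.95 to 5.29 CPM in stressed brains (log2FC -0.19 ± 0.10 SE, edgeR adjusted p = 0.224), and 10.1% of its exon bases are shared.

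*Mfsd2a*, which carries lysolipids with omega-3 fatty acids into the brain and holds down vesicle traffic, was at 27.01, 26.6, 28.6 and 23.9 CPM in the control brains and 30.1, 29.9, 28.4 and 28.2 CPM in the stressed brains. The groups overlapped through control M30 alone (log2FC 0.14 ± 0.05 SE, edgeR adjusted p = 0.0638), and without that brain *Mfsd2a* was called higher, with a log2FC of 0.19 and an edgeR adjusted p of 0.0104. *Plvap*, the protein of the diaphragms of leaky vessels, which brain endothelium loses as the barrier forms, was at 2.15, 1.904, 2.21 and 1.93 CPM in the control brains and 2.79, 2.61, 2.23 and 2.28 CPM in the stressed brains. The lowest stressed brain was just above the highest control brain, on 54 to 77 counts per brain, and it was not called (log2FC 0.27 ± 0.14 SE, edgeR adjusted p = 0.201).

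*Slc38a5*, an amino acid transporter of brain endothelium, was lower in every stressed brain, with 13.5 to 15.6 CPM in control and 11.9 to 13.4 CPM in stressed brains, and was not called (log2FC -0.17 ± 0.07 SE, edgeR adjusted p = 0.0902). The co-receptors through which Wnt7 reaches endothelial cells had opposite signs. *Adgra2* (GPR124) had 11.5 to 13.4 CPM in control and 10.8 to 11.6 CPM in stressed brains (log2FC -0.16 ± 0.07 SE, edgeR adjusted p = 0.109) and its partner *Reck* 12.6 to 15.7 CPM in control and 14.05 to 16.7 CPM in stressed brains (log2FC 0.16 ± 0.07 SE, edgeR adjusted p = 0.13). *Spock2* (testican-2), a secreted proteoglycan that neural cells also make, was at 372, 357, 359 and 362 CPM in the control brains and 341, 351, 328 and 326 CPM in the stressed brains. The groups were apart and the fall was 7.24% (log2FC -0.11 ± 0.03 SE, edgeR adjusted p = 0.00681).

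None of the 5 pericyte genes was called by edgeR or by DESeq2, and 1, *Cspg4*, was lower at an unadjusted p below 0.05. Of all genes 7.27% were called lower and 6.49% higher, and 0 of 5 lies near these shares. *Pdgfrb*, the receptor through which PDGF-B recruits pericytes, was at 24.2, 25.7, 27.8 and 25.4 CPM in the control brains and 24.8, 25.6, 27.6 and 25.1 CPM in the stressed brains, with group means of 25.8 ± 1.51 and 25.8 ± 1.24 CPM (SD, n = 4). Its difference was 0.00 on the log2 scale with an SE of 0.05. *Rgs5*, a regulator of G protein signalling that is high in brain pericytes, was at 71.9, 77.2, 78.3 and 80.5 CPM in the control brains and 72.3, 75.5, 75.8 and 79.3 CPM in the stressed brains (log2FC -0.02 ± 0.03 SE, edgeR adjusted p = 0.71). The potassium channel subunit gene *Abcc9* had 20.5 to 23 CPM in control and 21.4 to 23.04 CPM in stressed brains (log2FC 0.00 ± 0.05 SE, edgeR adjusted p = 0.995).

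*Cspg4* (NG2), which oligodendrocyte precursors make as well as pericytes, had 13.1 to 14.1 CPM in control and 10.7 to 13.04 CPM in stressed brains, with every stressed brain below the controls (log2FC -0.14 ± 0.07 SE, edgeR adjusted p = 0.165). Of 7 marker genes of oligodendrocyte precursors 4 were called lower and 1 higher in the same brains, beside 7.27% and 6.49% of all genes. Their summed levels were 132 to 138 CPM in stressed against 146 to 161 CPM in control brains, and their part in *Cspg4* was not tested. *Anpep* (aminopeptidase N), a peptidase of the pericyte surface, had 1.71 to 2.53 CPM in control and 1.38 to 2.73 CPM in stressed brains on 40 to 72 counts per brain (log2FC 0.13 ± 0.18 SE, edgeR adjusted p = 0.706).

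**Figure D3:**
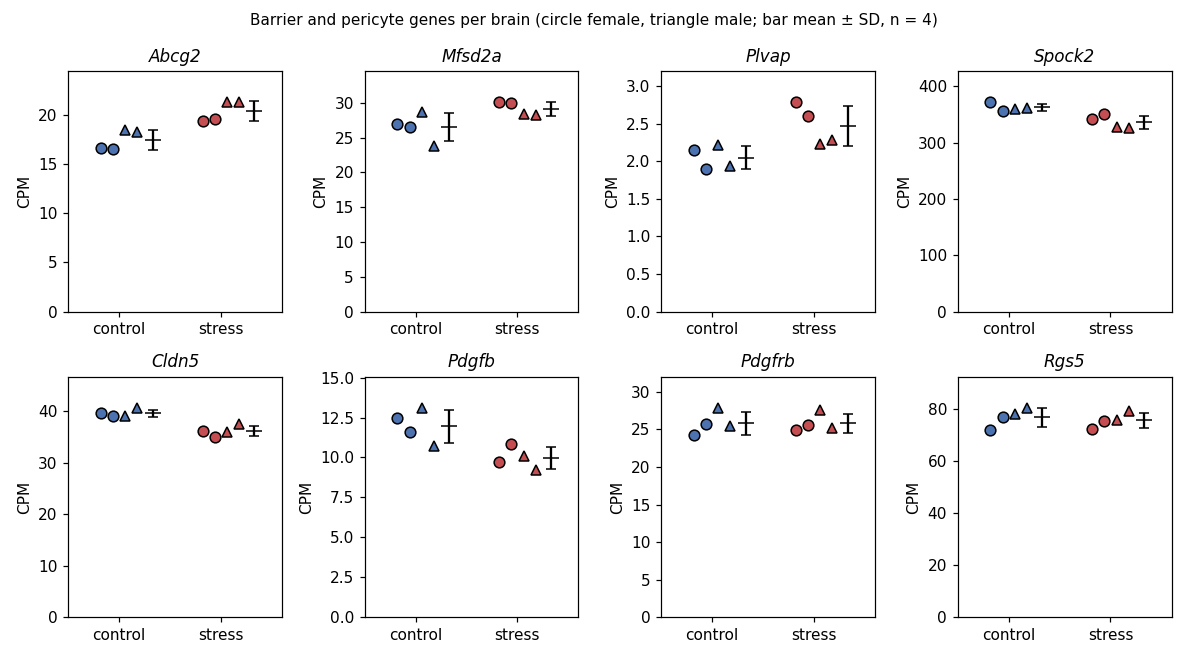
CPM per brain (y axis, from 0) of 4 barrier genes, the tight junction gene *Cldn5*, the pericyte growth factor *Pdgfb* and the pericyte genes *Pdgfrb* and *Rgs5* in the control and stress groups (x axis); circles are females, triangles males, bars the mean ± SD of 4 brains. *Abcg2* and *Plvap* lie wholly above the controls, *Spock2* and *Cldn5* wholly below, and the other 4 overlap.

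Levels can be compared between genes only per length of exon, as FPKM, here the TMM-scaled CPM per kilobase of exon. *Spock2* was the highest of the 47 genes, with 65.5 FPKM in control brains, followed by *Cldn5* with 27.9 FPKM, *Rgs5* with 16.9 FPKM, *Mfsd2a* with 11.8 FPKM and *Tjp1* with 11.4 FPKM. *Pdgfrb* had 4.71 FPKM, *Kdr* 4.58 FPKM, *Cdh5* 4.56 FPKM and *Pecam1* 3.29 FPKM. *Apln* had 3.10 FPKM, *Flt1* 1.76 FPKM and *Plvap* 1.03 FPKM, and *Esm1* was lowest with 0.197 FPKM. The 14 called genes held ranks from 1 (*Spock2*) to 34 (*Sox7*) among the 47. None of the 13 genes of lower rank was called, *Esm1* being untested, beside 7.27% of all genes called lower and 6.49% higher. Summed over all 47 genes, expression lay between 1048 and 1080 CPM in control and between 999 and 1006 CPM in stressed brains, a sum in which *Spock2* alone held 326 to 372 CPM.

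As a further description, chosen after the values were seen, genes were set against the summed counts of *Pecam1* and *Cdh5* in the same brain. Per 100 such counts, control brains held 55.9 to 63.7 counts of *Flt1* and stressed brains 42.5 to 51.1. For *Kdr* the ranges were 100.2 to 110 and 83.8 to 94.1, for *Apln* 23.8 to 25.3 and 15.3 to 18.3, for *Eng* 55.7 to 61.4 and 46.3 to 54.2, and for *Sox18* 14.9 to 17.9 and 11.99 to 14.05. The groups did not overlap for these 5 genes, as they did not in CPM. *Pecam1* and *Cdh5* are 2 of the 13 junction and surface genes, of which 5 were called lower and 0 higher. The log2FC was below 0 in 11 of the 13 and above 0 in 2, with a median of -0.13. Ranges against the other genes of that group were not computed. Neither *Pecam1* nor *Cdh5* was called, but both varied between brains, and that variation enters the ranges. They rest on the same counts as the values above and are no separate test. *Abcg2* (40.6 to 45.7 in control, 53.1 to 56.2 in stressed brains) and *Tie1* (43.2 to 47.2 and 50.04 to 55.1) were higher in every stressed brain, though the groups of *Tie1* overlapped in CPM. The ranges of *Tek* and *Mfsd2a* overlapped.

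The sexes were then taken apart. Between females and males 0 of the 46 genes were called by edgeR or DESeq2, with 3 and 2 at an unadjusted p below 0.05, and 0.0896% of all tested genes were called. For the interaction of sex with stress 0 of 46 were called by either tool, with 2 and 1 at an unadjusted p below 0.05, and 0.0056% of all genes were called. All 14 called genes had the same sign in females and in males. *Apln* had a log2FC of -0.61 in females and -0.64 in males, *Flt1* of -0.39 and -0.43, *Kdr* of -0.24 and -0.35, *Eng* of -0.24 and -0.29, and *Abcg2* of 0.24 and 0.21.

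With 2 brains against 2, edgeR called 4 of the genes lower in females (*Apln*, *Flt1*, *Kdr* and *Egfl7*) and 0 higher, against 2.27% and 1.64% of all genes. DESeq2 called 0 in females, with 7 at an unadjusted p below 0.05. In males edgeR called 5 lower (*Kdr*, *Flt1*, *Apln*, *Eng* and *Spock2*) and 0 higher, against 4.81% and 3.68% of all genes, and DESeq2 called 4 lower and 0 higher. By edgeR 6 of the genes in females and 3 in males were higher at an unadjusted p below 0.05. A call in 1 sex and not in the other does not show a difference, since no interaction was called.

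**Figure D4:**
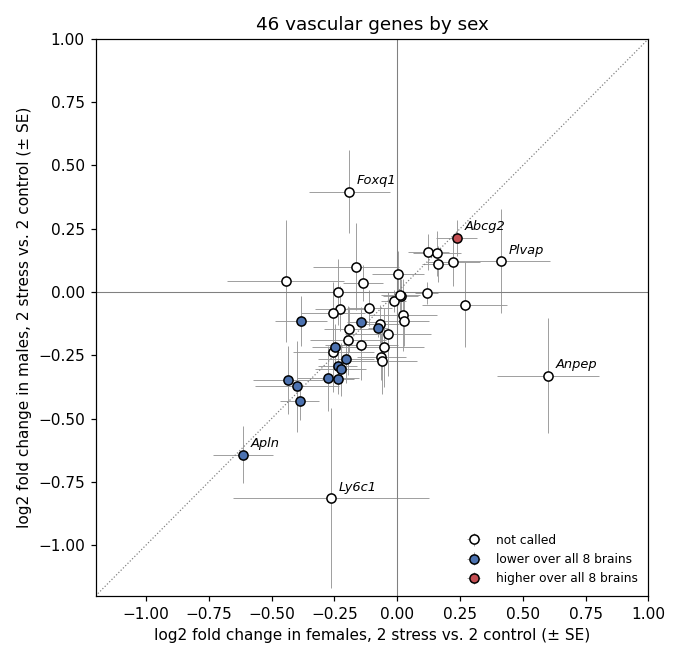
Log2 fold change (stress vs. control) of the 46 genes in females (x axis, 2 stress vs. 2 control) and males (y axis, 2 vs. 2), with ± 1 SE; the dotted line marks equal values and filled points were called over all 8 brains. All 14 filled points lie in the quadrants where both sexes have the same sign, and *Anpep* and *Foxq1* are open points in the other quadrants.

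Further genes of the same vessels were read from 4 lists of 126 genes in all, of which 117 passed the filter. In the stressed brains 13 were lower and 10 higher, with a median log2FC of -0.0065, against 7.27% and 6.49% of all genes. Without stress F34 and stress M28 the counts were 12 lower and 4 higher, and *Apcdd1*, *Adm* and *Col18a1*, named below, were then not called. Of 43 genes that signal to vessels 6 were lower and 4 higher, and the count higher was 2 without control F37 or without stress F34 and 1 without both stress F34 and stress M28. *Vegfa*, the main growth factor for brain vessels, was at 70.4, 77.99, 75.6 and 75.96 CPM in the control brains and 60.3, 62.9, 55.7 and 57.8 CPM in the stressed brains. Every stressed brain was below every control brain (log2FC -0.34 ± 0.04 SE, edgeR adjusted p = 2.69e-06). *Adm*, which encodes the vasoactive peptide adrenomedullin, was at 1.09, 1.09, 1.02 and 0.773 CPM in the control brains and 0.290, 0.395, 0.349 and 0.691 CPM in the stressed brains, its groups apart on 8 to 31 counts per brain (log2FC -1.19 ± 0.27 SE, edgeR adjusted p = 0.00342). *Calcrl*, the receptor for adrenomedullin, had 6.38 to 7.52 CPM in control and 4.08 to 5.89 CPM in stressed brains (log2FC -0.50 ± 0.10 SE, edgeR adjusted p = 0.00135).

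Genes of the Wnt pathway stood on the same list. *Apcdd1*, a Wnt target that tunes the pathway in barrier endothelium and is also made by other neural cells, rose in every stressed brain, with 80.4 to 82.3 CPM in control and 87.2 to 96.8 CPM in stressed brains (log2FC 0.15 ± 0.03 SE, edgeR adjusted p = 0.00228). *Wnt7a* had 27.2 to 28.98 CPM in control and 29.3 to 31.5 CPM in stressed brains (log2FC 0.09 ± 0.04 SE, edgeR adjusted p = 0.182) and *Wnt7b* 106 to 109 CPM in control and 107 to 124 CPM in stressed brains (log2FC 0.11 ± 0.04 SE, edgeR adjusted p = 0.0663). Without stress F35 or stress M29 *Wnt7b* was called higher, with edgeR adjusted p-values of 0.00542 and 0.0346. Both encode the ligands that call for a barrier through *Adgra2* and *Reck*.

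Of 41 further endothelial and barrier genes 5 were lower and 4 higher, beside 7.27% and 6.49% of all genes. The count higher was 2 by DESeq2, with no sex term, without control F37, control M31, stress F34 or stress M28, and without the last 2 together. *Slco1c1*, the thyroid hormone transporter of brain endothelium, was at 21.7, 25.3, 24.2 and 23.7 CPM in the control brains and 15.6, 16.8, 16.9 and 15.6 CPM in the stressed brains, with the groups well apart (log2FC -0.55 ± 0.06 SE, edgeR adjusted p = 7.31e-07). *Cav1*, the coat protein of caveolae, had 15.2 to 20.04 CPM in control and 11.1 to 13 CPM in stressed brains (log2FC -0.50 ± 0.07 SE, edgeR adjusted p = 5.07e-05), and *Bsg* (basigin), a chaperone of lactate transporters that neurons also make, 243 to 259 CPM in control and 225 to 234 CPM in stressed brains (log2FC -0.14 ± 0.03 SE, edgeR adjusted p = 0.00147). *Heg1*, a membrane protein of endothelial junctions, was higher, with 47.2 to 50.2 CPM in control and 52.9 to 59.5 CPM in stressed brains (log2FC 0.19 ± 0.04 SE, edgeR adjusted p = 0.00265). The glucose transporter gene *Slc2a1* (GLUT1), a defining gene of barrier endothelium, had 63.5 to 69.8 CPM in control and 59.7 to 64.1 CPM in stressed brains and was not called (log2FC -0.10 ± 0.04 SE, edgeR adjusted p = 0.0689). Without control F36 or control M30 it was called lower, with edgeR adjusted p-values of 0.0342 and 0.0475.

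Of 20 further pericyte and smooth muscle genes 2 (10%) were lower and 0 higher by edgeR, near the 7.27% of all genes called lower. Of all genes 6.49% were called higher. In this list 1 was higher at an unadjusted p below 0.05, and DESeq2 also called 2 lower and 0 higher. Without stress F35, or with no filter on low counts, edgeR called 1 higher. The 2 were *Gucy1b1* (67.3 to 73.6 CPM in control and 56.8 to 62.3 CPM in stressed brains, log2FC -0.27 ± 0.04 SE, edgeR adjusted p = 2.11e-05) and *Gucy1a1* (73.4 to 91.5 CPM in control and 62.98 to 74.5 CPM in stressed brains, log2FC -0.26 ± 0.05 SE, edgeR adjusted p = 0.000517), which encode the subunits of the nitric oxide receptor guanylyl cyclase, a protein that neurons also make. Of 15 basement membrane genes 2 were higher and 1 lower, beside 6.49% and 7.27% of all genes. The count higher was 1 by DESeq2, without control F36, control M31 or stress F34, and without both stress F34 and stress M28. The count lower was 0 by DESeq2 and without control F37, control M31, stress F35 or stress M29, and 2 with no filter, without control F36 or stress F34, and without both stress F34 and stress M28. *Lama5*, a laminin chain, was at 7.61, 7.69, 8.09 and 6.96 CPM in the control brains and 11.2, 10.3, 11.7 and 9.604 CPM in the stressed brains, every stressed brain above the controls (log2FC 0.50 ± 0.08 SE, edgeR adjusted p = 0.000136). *Col18a1* was higher (log2FC 0.18 ± 0.05 SE, edgeR adjusted p = 0.017) and *Col4a2*, a chain of the main vascular collagen, lower (log2FC -0.12 ± 0.04 SE, edgeR adjusted p = 0.0337), both by small steps. The adjusted p of *Col18a1* was 0.0552 to 0.0856 by edgeR without control F36, control M31 or stress F34, and that of *Col4a2* 0.0922 to 0.188 without control F37 or M31 or stress F35 or M29.

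**Figure D5:**
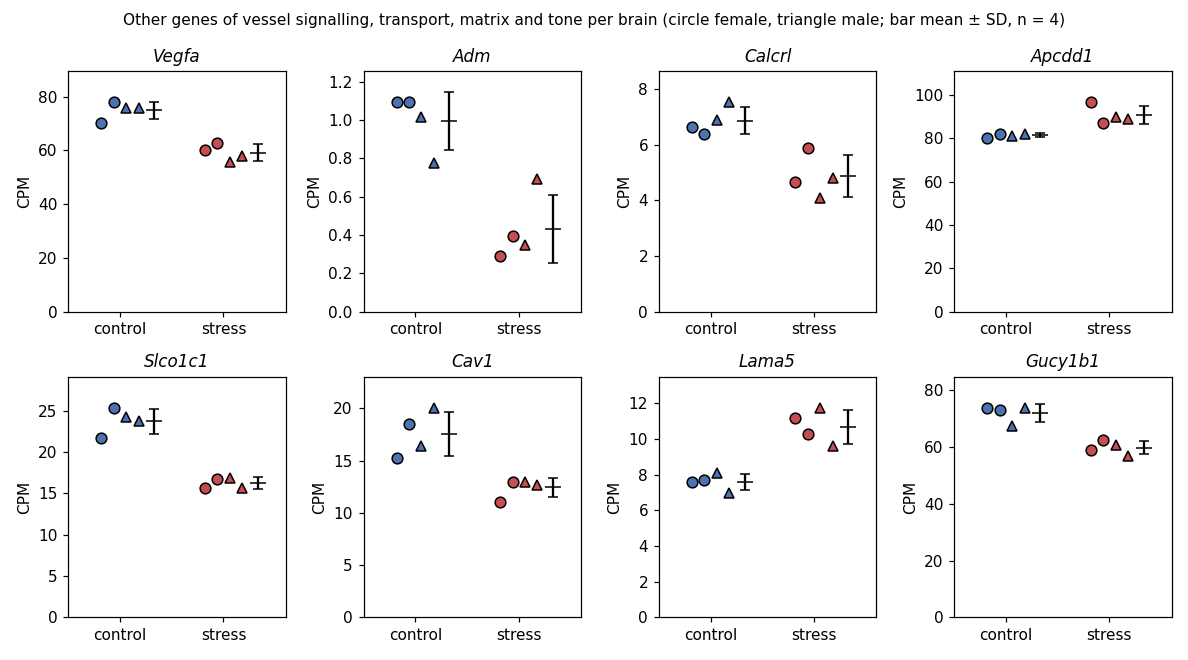
CPM per brain (y axis, from 0) of 8 genes of vessel signalling, transport, matrix and tone in the control and stress groups (x axis); circles are females, triangles males, bars the mean ± SD of 4 brains. *Vegfa*, *Adm*, *Calcrl*, *Slco1c1*, *Cav1* and *Gucy1b1* lie below the controls in every stressed brain, *Apcdd1* and *Lama5* above.

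Markers of the other cells in the sample moved too, and their part in the values above was not tested. Of all tested genes 7.27% were called lower and 6.49% higher, and the counts of each list stand beside these shares. Neural progenitor genes were higher in 6 of 10 and lower in 0, by edgeR and also at an unadjusted p below 0.05 (DESeq2 5 higher, 0 lower), with *Top2a* (log2FC 0.24) and *Mki67* (0.21) first. The 4 progenitor genes not called had a log2FC below 0, down to -0.10. Without both stress F34 and stress M28, 4 of the 10 were called higher, and without control M31 1 was called lower. Their summed level was 1837 to 1959 CPM in control and 1909 to 2078 CPM in stressed brains. Neuron genes were lower in 6 of 10 and higher in 0 (DESeq2 4 lower, 0 higher, and 0 higher at an unadjusted p below 0.05), with *Gap43* (-0.12) and *Rbfox3* (-0.13) first. The count lower was 3 with no sex term and without control F36, stress M28 or stress M29, 2 without stress F34 and 1 without both stress F34 and stress M28. Their sum was 7406 to 7654 CPM against 7182 to 7558 CPM. Oligodendrocyte precursor genes were lower in 4 of 7 and higher in 1, led by *Olig1* (-0.26) and *Pdgfra* (-0.31), and the count higher was 0 by DESeq2 and without both brains.

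Blood and immune cell markers were read next, beside the 7.27% of all genes called lower and the 6.49% called higher. Of 11 erythroid genes the embryonic globins *Hba-x* (log2FC 1.09) and *Hbb-y* (0.84) were higher and 1, *Hbb-bs* (-0.14), lower, with overlapping sums of 367 to 416 CPM in control and 374 to 390 CPM in stressed brains. The count lower was 0 without control F37 or without stress F34. Of 14 microglia and macrophage genes 0 were called by edgeR or DESeq2 and 0 had an unadjusted p below 0.05, and the sums were 61.4 to 65.4 CPM and 60.8 to 66.7 CPM. The lowest p-values there were those of *P2ry12* (log2FC -0.18) and *Trem2* (-0.22). Platelet genes passed the filter in 3 of 9, and 0 were called by either tool or had an unadjusted p below 0.05, with *Gp1ba* at a log2FC of 0.37, *Gp1bb* at -0.42 and sums of 6.31 to 7.24 CPM and 5.98 to 7.70 CPM.

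Of 11 fibroblast genes 3 were higher and 1 lower, beside 6.49% and 7.27% of all genes. The collagen genes *Col1a1*, *Col1a2* and *Col3a1* were called higher and all peaked in stress M28, where *Col3a1* reached 21.3 CPM against 4.72 to 10.6 CPM in the other brains, and DESeq2 called none of the 3. The count of fibroblast genes called higher was 1 without stress M28, 0 without both stress F34 and stress M28, 2 without control M30 or M31 and 5 without control F36 or stress F35. *Pdgfra*, which oligodendrocyte precursors also make, fell. Of 8 choroid plexus genes 2 were higher and 0 lower by edgeR, with 1 lower at an unadjusted p below 0.05 and 1 higher and 0 lower by DESeq2. They were *Otx2* (log2FC 0.19) and *Ttr*, which reached 29.9 CPM in stress F34 and 0.564 to 6.95 CPM elsewhere. The count higher was 1 with no sex term, without control F37 or stress F34, and without both stress F34 and stress M28. No list gene was at 0 in all 8 brains. Without stress F34 and stress M28 *Apln* had a log2FC of -0.66, *Flt1* of -0.45, *Kdr* of -0.30 and *Eng* of -0.29, with adjusted p-values of 0.000197, 0.000346, 0.0013 and 0.00371 by edgeR.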

How the data were processed

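RNA-seq counts of 8 whole brains (E15.5) were used, 1 library per brain. The authors trimmed the reads, aligned them with TopHat2 2.1.1 (mm10) and used featureCounts 1.6.3 to count read pairs per GENCODE gene, and the deposited values are raw counts per gene without normalization. The counting is not described as stranded, and no rule is described for read pairs that fall on more than 1 gene. Counts of genes that share exon bases are therefore uncertain. Groups and sexes were taken from the labels. A symbol was found for 54723 of the 54752 listed genes.

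Counts were filtered with filterByExpr (minimum count 10, by group), scaled by TMM factors and fitted with edgeR 4.0.16 in R 4.3.3 (glmQLFit, then glmQLFTest), with sex and condition in the model and Benjamini-Hochberg adjustment over all genes. The biological coefficient of variation was 3.14%. A fit with 200 changed genes planted in simulated counts was checked first. With 4 brains against 4 no exact two-sided permutation p can fall below 0.0286.

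The 47 genes and all lists were chosen with earlier results of these data known. Values per brain are given for the 12 called genes of smallest p, the 3 genes of largest change among those not called and 8 fixed markers, and for other lists at most 4 called genes and 5 fixed genes. *Ahsp* was not matched to a row. Alternatives were DESeq2 1.42.0, other scalings, no filter, no sex term and each brain left out, and, chosen after seeing the data, 2 brains left out together. Promoters came from RefSeq (GRCm38.p6). The study's model also held batch, which was not used here, and its other libraries were not analysed here.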

Additional observations from a re-analysis of the deposited data

Results flagged for a closer look

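*Tie1* stood out within the control group through 1 brain, control M30, at 18.6 CPM against 17.6 to 17.7 CPM in the other 3, a gap of 0.901 of the group's range. *Ets1* did so through control F36, at 23.3 CPM against 26.01 to 26.4 CPM, a gap of 0.861 of the range. These were 2 of 92 such checks, each against Dixon's 95% critical value for 4 samples, where chance alone marks about 1 in 20. *Foxq1* had opposite signs in the sexes, with every stressed female below the control females and every stressed male above the control males. Its log2FC was -0.19 in females and 0.40 in males, and the interaction was -0.59 on the log2 scale (females minus males, SE 0.22), which did not pass edgeR's test after adjustment (adjusted p = 0.653). Since 66.1% of its exon bases are shared with another annotated gene, its count is uncertain.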

How the results depend on the processing

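The count of vascular genes called lower was 13, and 11 to 13 under the other scalings, no filter and no sex term. It was 7 by DESeq2 and 7 without stress F34 and stress M28 together, an alternative chosen after seeing the data. With 1 brain left out in turn it ranged from 8 (without control F37 or without stress F34) to 11, and the count called higher from 1 to 2 (2 without control M30 or without stress F35). Of the 117 genes of the further vascular lists, 10 were called higher, 6 by DESeq2, 4 without both brains, and 5 (without stress F34) to 10 with 1 brain left out (6 without control F37). Vascular genes called in females alone went from 4 to 0 by DESeq2 (6 lower and 1 higher at an unadjusted p below 0.05), and in males alone from 5 to 0 with no filter (12 lower and 3 higher at an unadjusted p below 0.05). The cause of these shifts was not tested. No called log2FC of a named gene turned its sign under any alternative run. Genes below about 100 counts per brain, such as *Plvap*, *Ly6c1*, *Anpep* and *Angpt2*, are limited by depth. No paired analysis was possible because the control and stressed brains share no replicate number.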
